A study of Mus musculus with 7 samples.

Results

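The enzymes described here attach a sugar (mostly glucuronic acid), sulfate or glutathione to drugs, hormones, bile acids and reactive metabolites, the step known as phase II conjugation. Members were chosen by gene symbol: families 1 to 3 of the UDP-glucuronosyltransferases (Ugt1a, Ugt2a, Ugt2b, Ugt3a), families 1 to 5 of the cytosolic sulfotransferases (Sult), and the alpha, kappa, mu, omega, pi, theta and zeta classes of the soluble glutathione transferases (Gst). Pseudogenes with a symbol ending in -ps and the estrogen sulfotransferase Sult1e1 were left out by the rule. This gave 62 of the 56691 genes in the count table, namely 21 Ugt, 18 Sult and 23 Gst genes. They were compared between livers of control mice and of mice given lipopolysaccharide (LPS), a bacterial cell wall component that sets off systemic inflammation.

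The data are bulk RNA sequencing of liver from male C57BL/6J mice, an inbred strain, bought at 8 weeks of age and housed for 2 weeks before use. The LPS group (3 mice) received 10 mg/kg of LPS into the peritoneum and was killed 24 h later, and 4 mice form the control group. Libraries were built from poly(A) RNA by the strand-specific dUTP method and read on an MGISEQ2000 instrument. Control replicates 1 to 4 held 14991022, 15096573, 15721944 and 18584140 counted reads, and LPS replicates 1 to 3 held 20500391, 17095607 and 17821331.

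As background, Ugt enzymes sit in the endoplasmic reticulum and use UDP sugars, for most of them UDP-glucuronate, Sult enzymes are cytosolic and use the sulfate donor PAPS, and Gst enzymes use glutathione. The conjugates are more soluble in water than their parent compounds and leave the hepatocyte through transporters into bile or blood. Liver is a main site of all 3 reactions, and their transcripts are known to be under the control of nuclear receptors, Nrf2 and liver-enriched transcription factors.

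Levels are given as CPM, counts divided by the library size after scaling by TMM, a method that assumes that most genes do not change. A fold change is LPS over control on the log2 scale, with its standard error (SE). A gene is said to have risen or fallen where its adjusted p was below 0.05 in edgeR's quasi-likelihood test with Benjamini-Hochberg adjustment over the 13683 genes that passed the filter on low counts. At these depths the detection floor of 3 counts lies between 0.138 and 0.212 CPM, depending on the library. That floor reflects counting error only, because the reads carry no molecular identifiers. The acute phase gene Saa1 was used to check the group labels, with 93.3, 141, 65.5 and 49.02 CPM in control replicates 1 to 4 and 16518, 23907 and 25889.9 CPM in LPS replicates 1 to 3. All 3 LPS-treated mice thus carried a far higher level of this inflammation marker than any control mouse.

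The filter kept 42 of the 62 members: 15 Ugt, 7 Sult and 20 Gst. Of these 42, 28 fell, 4 rose and 10 did not pass the test. Over all genes tested, 13.0% (1773) fell and 13.3% (1825) rose. Requiring in addition a change of over 2-fold left 24 members that fell and 3 that rose, where 7.31% of all genes fell and 7.81% rose by that rule. In 29 members all 3 LPS-treated mice were below all 4 control mice, and in 4 members they were above, against 17.4% and 18.1% of all genes tested. The median log2 fold change was -1.50 over the 42 members and -0.01 over all genes tested. With library totals in place of TMM, 1350 genes rose and 2057 fell, the median of all genes shifted by -0.12, and 13 Ugt, 4 Sult and 13 Gst genes fell, while 2 Sult and 2 Gst genes rose. Bulk liver was sequenced, so fewer cells of a type and less RNA per cell cannot be told apart.

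By family, 13 of the 15 Ugt genes tested fell and 2 did not pass the test, and 12 of the falls were over 2-fold. Of the 7 Sult genes, 4 fell (3 over 2-fold), 2 rose (both over 2-fold) and 1 did not pass. Of the 3 larger Sult falls, those of Sult1c2 and Sult5a1 are of genes with few counts in LPS-treated mice, which passed the filter through the control group, so the filter favoured a fall. Of the 20 Gst genes, 11 fell (9 over 2-fold), 2 rose (1 over 2-fold) and 7 did not pass. The median log2 fold change was -1.83 for Ugt, -0.54 for Sult and -1.07 for Gst. Whether the families differ in their response was not tested. Of the 32 members that rose or fell, 27 were past the threshold in each of the 7 fits that left out 1 mouse, and the other 5 (Ugt1a9, Ugt3a1, Sult1b1, Sult2a7 and Gstt3) are given below with those values.

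Summed over members, Ugt transcripts amounted to 3915, 3722, 6333 and 4548 CPM in control replicates 1 to 4 and 1137, 1273 and 1262 CPM in LPS replicates 1 to 3. The highest LPS-treated mouse was well below the lowest control mouse, and control replicate 3 was the highest of all; the LPS mean was 26.4% of the control mean. Sult transcripts summed to 1765, 1734, 1984 and 1737 CPM in the control mice and 714, 678 and 646 CPM in the LPS-treated mice. Here too the groups did not overlap, and the LPS mean was 37.6% of control. For Gst the sums were 5353, 5458, 5822 and 5706 CPM against 1853, 2093 and 2154 CPM. The 3 LPS-treated mice were again the lowest, at 36.4% of control on average. All 62 members together made up 1.04%, 1.15%, 1.47% and 1.33% of the counts in control replicates 1 to 4 and 0.392%, 0.367% and 0.366% in LPS replicates 1 to 3. These shares are of all counts, mitochondrial ones included, and do not depend on a scaling between samples.

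**Figure D1:**
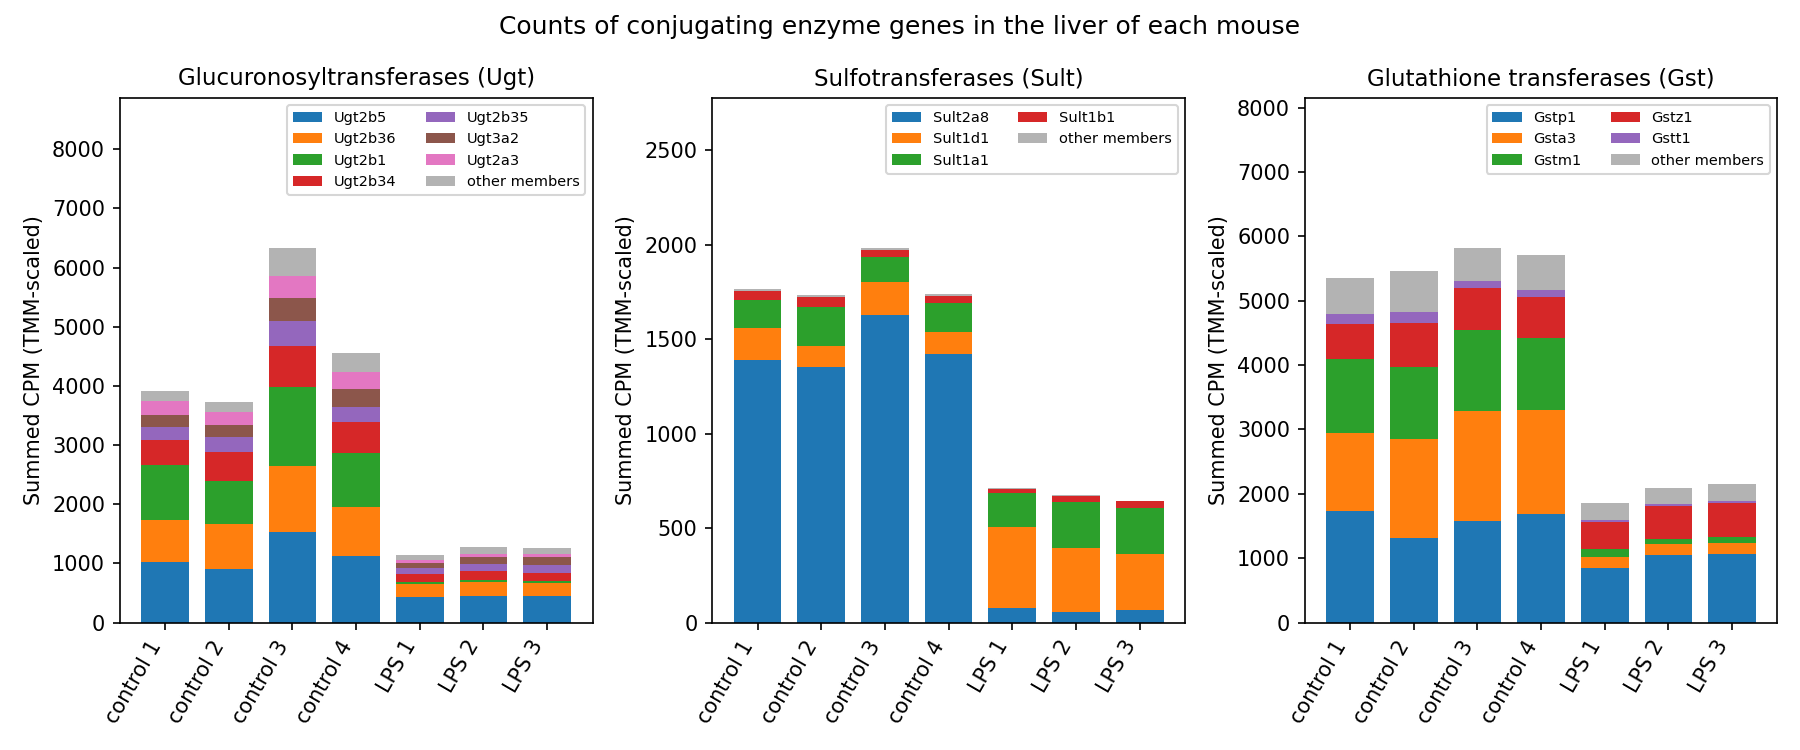
Summed CPM of the Ugt, Sult and Gst members in each mouse; each bar is 1 mouse, 4 control and 3 LPS-treated, and colours show the members that make up the sum. In each family the 3 LPS-treated mice are below the 4 control mice, with means at 26.4% (Ugt), 37.6% (Sult) and 36.4% (Gst) of control.

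Sums by subfamily lay at different distances from control. The Ugt2b sum was 3886 ± 951 CPM (SD, n = 4) in control mice and 978 ± 40.1 CPM (SD, n = 3) in LPS-treated mice, which is 25.2% of control. For Ugt2a, Ugt1a and Ugt3a the LPS mean was 16.2%, 35.4% and 47.4% of the control mean. The Sult2 sum was 1449.8 ± 125 CPM (SD, n = 4) and 70.9 ± 8.78 CPM (SD, n = 3), or 4.89% of control. The Sult1 sum lay the other way, with 349.7 ± 30.9 CPM in control and 608 ± 28.9 CPM in LPS-treated mice, without overlap. Among the Gst classes, alpha was at 10.8% of control, mu at 14.7%, omega at 29.9%, theta at 35.2%, pi at 63.4%, kappa (Gstk1 alone) at 73.3% and zeta (Gstz1 alone) at 78.1%. These sums are descriptions with no test.

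Several other measured features of the samples moved with the groups. For the marker counts below, 13.3% of all genes tested rose and 13.0% fell. Mitochondrial transcripts took 23.7%, 14.6%, 7.48% and 8.96% of the counts in control replicates 1 to 4 and 6.45%, 3.83% and 3.94% in LPS replicates 1 to 3. Of 22 general hepatocyte markers, 8 rose and 5 fell, and their summed level overlapped between groups, at 107867, 113028, 142356 and 125449 CPM in control and 131026, 166204 and 168267 CPM in LPS-treated mice. The sum in LPS-treated mice rests in large part on 3 genes that rose and that were picked after their values were seen: the mean of Fga was 4252 ± 1938 CPM (SD, n = 4) in control and 28493 ± 6467 CPM (SD, n = 3) in LPS-treated mice, that of Fgb 5199 ± 1038 and 25866 ± 5114 CPM, and that of Trf 12442 ± 2788 and 25323 ± 3828 CPM. Albumin (Alb) had the most counts of the list in control mice, with 38.5% of the sum in control and 15.9% in LPS-treated mice. Of 15 pericentral markers, from the zone near the central vein, 8 fell and 1 rose. Their sum was 9519, 13021, 12202 and 10746 CPM in control and 6519, 6766 and 6844 CPM in LPS-treated mice, without overlap, with the most counts in Cyp2e1. Of 15 periportal markers 7 rose and 3 fell, and the sum, again mostly Alb, was 43639, 44011, 68728 and 59744 CPM against 36174, 39763 and 39876 CPM. The part of any of these in the fall of the conjugating enzymes was not tested.

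Markers of other cells differed between groups in some lists, while the macrophage, cholangiocyte, endothelial and stellate cell sums overlapped. Of all genes tested, 13.3% rose and 13.0% fell, and the cholangiocyte, endothelial and stellate cell counts below are near those shares. Of 14 neutrophil markers 8 passed the filter on low counts and rose. Since most of the 8 have few counts in control mice and passed the filter through the LPS group, that count is largely set by the filter. The sum of the list was 5.24, 4.61, 2.32 and 3.44 CPM in control and 222, 163 and 161 CPM in LPS-treated mice, with the most counts in S100a9 in LPS-treated mice and Stfa1 at 0 in all samples. Of 13 macrophage markers 6 rose and 1 fell, and LPS replicate 1 stood apart with a sum of 826 CPM, with the most counts in Marco, where LPS replicates 2 and 3 had 234 and 243 CPM and control mice 183, 248, 234 and 152 CPM. Of 9 tested cholangiocyte markers 1 rose, and the sum, with the most counts in Spp1, was 289, 129.7, 90.01 and 138 CPM in control and 152, 183 and 177 CPM in LPS-treated mice. The endothelial list (2 of 10 rose, 2 fell; most counts in Dnase1l3 in control mice) summed to 158, 209, 123 and 166 CPM in control and 204, 114 and 111 CPM in LPS-treated mice. The stellate cell and fibroblast list (1 of 10 rose, 2 fell; most counts in Dcn) summed to 509.8, 351, 226 and 358 CPM in control and 369, 302 and 291 CPM in LPS-treated mice. Of 5 tested lymphocyte markers 2 fell, and the list of 11 summed to 7.22, 8.20, 7.58 and 6.000 CPM in control and 4.06, 2.32 and 3.55 CPM in LPS-treated mice, with the most counts in Cd4 in control mice, and here too few counts in 1 group let the filter favour falls. Of 5 erythroid markers 4 fell, and their sum, with the most counts in Hbb-bs, was 307, 183, 232 and 179 CPM in control and 136, 53.9 and 53.8 CPM in LPS-treated mice. Single mice mattered for some of these calls: Lrat no longer passed without control replicate 4 or LPS replicate 1 or 2 (adjusted p = 0.0524, 0.0670 and 0.0676), Hba-a1 no longer passed without control replicate 1, 2 or 3 or LPS replicate 2 or 3 (adjusted p = 0.0832, 0.0623, 0.0518, 0.124 and 0.147), Hbb-bs no longer passed without control replicate 1, 2 or 3 or LPS replicate 2 or 3 (adjusted p = 0.105, 0.0819, 0.0519, 0.169 and 0.181) and Hbb-bt no longer passed without LPS replicate 2 or 3 (adjusted p = 0.0660 and 0.0686), all in the edgeR quasi-likelihood test with Benjamini-Hochberg adjustment. All 8 acute phase genes rose, and their sum, with the most counts in Hpx, was 7603, 8027, 6729 and 5306 CPM in control and 110403, 151102 and 157588 CPM in LPS-treated mice. The part of these cell types and of LPS replicate 1's macrophage level in the results on the conjugating enzymes was not tested.

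Ugt2b enzymes conjugate steroids, bile acids and many drugs, and all 7 Ugt2b genes in the table passed the filter and fell. Ugt2b5 (ENSMUSG00000054630) had 1028, 910.2, 1537 and 1118 CPM in control replicates 1 to 4 and 429, 455 and 441 CPM in LPS replicates 1 to 3. Its groups did not overlap, and the lowest control mouse stood well above the highest LPS-treated mouse (log2 fold change -1.38, SE 0.19, adjusted p = 0.000187 in the edgeR quasi-likelihood test with Benjamini-Hochberg adjustment). Ugt2b1 (ENSMUSG00000035836) had 941, 728, 1331 and 917 CPM in control replicates 1 to 4 and 39.7, 30.9 and 28.3 CPM in LPS replicates 1 to 3. This was the largest fall among the tested Ugt genes, to 3.37% of control, with the LPS-treated mice close together and far below every control mouse (log2 fold change -4.89, SE 0.25, adjusted p = 4.34e-08 in the edgeR quasi-likelihood test with Benjamini-Hochberg adjustment). Ugt2b36 (ENSMUSG00000070704) had 698, 749.6, 1114 and 838 CPM in control replicates 1 to 4 and 215, 228 and 227 CPM in LPS replicates 1 to 3. Again no values overlapped, and control replicate 3 was the highest (log2 fold change -1.93, SE 0.19, adjusted p = 8.38e-06 in the edgeR quasi-likelihood test with Benjamini-Hochberg adjustment).

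Ugt2b34 (ENSMUSG00000029260) had 424, 491, 689 and 512 CPM in control replicates 1 to 4 and 137, 160.4 and 147 CPM in LPS replicates 1 to 3. The LPS-treated mice were at 28.00% of control, and no values overlapped (log2 fold change -1.84, SE 0.18, adjusted p = 1.18e-05 in the edgeR quasi-likelihood test with Benjamini-Hochberg adjustment). Ugt2b35 (ENSMUSG00000035811) had 219.6, 259, 429.7 and 267 CPM in control replicates 1 to 4 and 93.2, 114 and 122 CPM in LPS replicates 1 to 3. Control replicate 3 was the highest here as well, and the 3 LPS-treated mice were the lowest (log2 fold change -1.42, SE 0.22, adjusted p = 0.000459 in the edgeR quasi-likelihood test with Benjamini-Hochberg adjustment). Ugt2b37 (ENSMUSG00000057425), a far less counted gene, had 16.3, 6.94, 36.5 and 12.2 CPM in control replicates 1 to 4 and 3.13, 2.96 and 2.30 CPM in LPS replicates 1 to 3. The control mice spread widely, but the lowest of them was above the highest LPS-treated mouse (log2 fold change -2.67, SE 0.48, adjusted p = 0.00117 in the edgeR quasi-likelihood test with Benjamini-Hochberg adjustment). Without control replicate 3 the log2 fold change of Ugt2b37 was -2.07. The 7th gene, Ugt2b38, had 67.9 ± 46.8 CPM (SD, n = 4) in control and 19.1 ± 1.89 CPM (SD, n = 3) in LPS-treated mice (log2 fold change -1.83, SE 0.44, adjusted p = 0.00823 in the edgeR quasi-likelihood test with Benjamini-Hochberg adjustment).

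The Ugt1a genes share their 3' exons, and each has a first exon of its own, so that 1 locus gives enzymes with different substrates. Ugt1a1, the bilirubin-conjugating enzyme, had 32.2, 59.6, 167 and 122 CPM in control replicates 1 to 4 and 16.9, 30.9 and 28.1 CPM in LPS replicates 1 to 3. The control mice spread over a wide range, with control replicates 3 and 4 high, and control replicate 1 only just above LPS replicate 2 (log2 fold change -1.92, SE 0.45, adjusted p = 0.00748 in the edgeR quasi-likelihood test with Benjamini-Hochberg adjustment). Ugt1a9 (ENSMUSG00000090175), which acts on phenols, had 2.55, 3.09, 35.99 and 24.3 CPM in control replicates 1 to 4 and 1.20, 2.13 and 2.18 CPM in LPS replicates 1 to 3. In this gene control replicates 3 and 4 were high, while control replicates 1 and 2 were close to the LPS-treated mice, though still above them (log2 fold change -3.19, SE 0.83, adjusted p = 0.0128 in the edgeR quasi-likelihood test with Benjamini-Hochberg adjustment). Without control replicate 3 the log2 fold change of Ugt1a9 was -2.48, and without LPS replicate 1 the gene no longer passed, at an adjusted p of 0.0505 in the edgeR quasi-likelihood test with Benjamini-Hochberg adjustment, and over all alternatives it lay between 7.87e-30 and 0.0505. Control replicates 1 and 2 were also the samples with the highest mitochondrial share given above, whose part in these values was not tested.

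Ugt1a6a, known for planar phenols, had 14.6, 12.5, 5.99 and 10.3 CPM in control replicates 1 to 4 and 5.25, 3.29 and 2.55 CPM in LPS replicates 1 to 3, and it fell with no overlap (log2 fold change -1.53, SE 0.33, adjusted p = 0.00468 in the edgeR quasi-likelihood test with Benjamini-Hochberg adjustment). Its close paralog Ugt1a6b had 7.36, 13.1, 44.5 and 32.9 CPM in control replicates 1 to 4 and 16.2, 16.3 and 16.9 CPM in LPS replicates 1 to 3. These values overlapped and did not pass the test, with control replicates 1 and 2 below all LPS-treated mice and control replicates 3 and 4 above them (log2 fold change -0.58, SE 0.45, adjusted p = 0.383 in the edgeR quasi-likelihood test with Benjamini-Hochberg adjustment). Ugt1a5 had 2.83, 4.42, 2.26 and 9.19 CPM in control replicates 1 to 4 and 5.53, 4.64 and 8.28 CPM in LPS replicates 1 to 3, which overlapped as well (log2 fold change 0.38, SE 0.43, adjusted p = 0.563 in the edgeR quasi-likelihood test with Benjamini-Hochberg adjustment). Ugt1a6b and Ugt1a5 were the 2 tested Ugt genes that did not pass. With no filter on low counts Ugt1a6b passed, at an adjusted p of 0.0192 in the edgeR quasi-likelihood test with Benjamini-Hochberg adjustment, and over all alternatives it lay between 0.0192 and 0.990.

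Ugt2a3, the only Ugt2a gene with counts, had 241, 232, 369 and 289 CPM in control replicates 1 to 4 and 45.3, 46.6 and 45.4 CPM in LPS replicates 1 to 3. It fell to 16.2% of control without overlap (log2 fold change -2.63, SE 0.19, adjusted p = 6.60e-07 in the edgeR quasi-likelihood test with Benjamini-Hochberg adjustment). The Ugt3a enzymes use UDP sugars other than UDP-glucuronate. Ugt3a2 (ENSMUSG00000049152) had 200.4, 194, 379.6 and 301 CPM in control replicates 1 to 4 and 94.02, 126 and 146 CPM in LPS replicates 1 to 3. No LPS-treated mouse reached a control value, and control replicate 3 was the highest (log2 fold change -1.14, SE 0.25, adjusted p = 0.00438 in the edgeR quasi-likelihood test with Benjamini-Hochberg adjustment). Ugt3a1 had 24.8, 36.9, 57.7 and 39.8 CPM in control replicates 1 to 4 and 18.4, 29.9 and 23.7 CPM in LPS replicates 1 to 3. The groups overlapped in this gene, and it passed the test narrowly (log2 fold change -0.73, SE 0.25, adjusted p = 0.0486 in the edgeR quasi-likelihood test with Benjamini-Hochberg adjustment). In the same edgeR quasi-likelihood test with Benjamini-Hochberg adjustment, the adjusted p of Ugt3a1 was 0.0712, 0.0993 and 0.0792 without control replicates 2, 3 and 4, and 0.167 and 0.138 without LPS replicates 1 and 3. The gene also did not pass with RLE factors (0.0513), with library sizes that omit genes above 1% of counts (0.0502) or with LPS replicates 2 and 3 summed (0.0887), each an adjusted p in the edgeR quasi-likelihood test with Benjamini-Hochberg adjustment.

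The donor of glucuronidation is made in steps from glucose. Of 9 genes of UDP-glucuronate supply, 2 rose and 1 fell, with a median log2 fold change of -0.29. Of all genes tested 13.3% rose and 13.0% fell, so the share that fell is near that of all genes. The gene that fell was Ugp2, which makes UDP-glucose, with 310.1, 304, 532 and 361 CPM in control and 186, 158 and 142 CPM in LPS-treated mice (log2 fold change -1.22, SE 0.21). Those that rose were the carrier gene Slc35b1 (log2 fold change 0.89, SE 0.20) and the phosphoglucomutase Pgm2 (log2 fold change 0.76, SE 0.25). Whether Slc35b1 carries UDP-glucuronate was not tested. Slc35d1, another carrier gene of the list named after its values were seen, did not pass (log2 fold change -0.33, SE 0.15). Pgm2 no longer passed without control replicate 2, 3 or 4 or LPS replicate 1, 2 or 3 (adjusted p = 0.104, 0.0678, 0.0978, 0.112, 0.112 and 0.0763) in the edgeR quasi-likelihood test with Benjamini-Hochberg adjustment. Whether the supply genes and the Ugt genes differ in their response was not tested.

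Among the sulfotransferases, Sult2a8, known as the bile acid sulfotransferase of mouse liver, made up 80.2% of the Sult counts in control mice and 9.82% in LPS-treated mice. Sult2a8 (ENSMUSG00000030378) had 1387, 1351, 1631 and 1423 CPM in control replicates 1 to 4 and 77.3, 57.7 and 65.2 CPM in LPS replicates 1 to 3. The 2 groups were each tight and lay far apart, with LPS-treated mice at 4.61% of control (log2 fold change -4.44, SE 0.19, adjusted p = 1.09e-08 in the edgeR quasi-likelihood test with Benjamini-Hochberg adjustment). Sult2a7 (ENSMUSG00000094156), the only other tested gene of its subfamily, had 1.49, 1.33, 1.344 and 1.65 CPM in control replicates 1 to 4 and 2.72, 4.77 and 3.80 CPM in LPS replicates 1 to 3. It rose at a very low level, and the lowest LPS-treated mouse exceeded the highest control (log2 fold change 1.36, SE 0.35, adjusted p = 0.0131 in the edgeR quasi-likelihood test with Benjamini-Hochberg adjustment). Without LPS replicate 2 its log2 fold change was 1.16, and it did not pass, with an adjusted p of 0.0866 in the edgeR quasi-likelihood test with Benjamini-Hochberg adjustment, and over all alternatives it lay between 0.00518 and 0.0866.

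Sult1d1 (ENSMUSG00000029273), which acts on catecholamines, had 170.3, 114, 174 and 117 CPM in control replicates 1 to 4 and 430.4, 338 and 298 CPM in LPS replicates 1 to 3. The LPS-treated mice were the 3 highest of the 7, a rise of 2.47-fold (log2 fold change 1.31, SE 0.19, adjusted p = 0.000321 in the edgeR quasi-likelihood test with Benjamini-Hochberg adjustment). Sult1a1 (ENSMUSG00000030711), the main phenol sulfotransferase, had 149.9, 206, 129 and 149.5 CPM in control replicates 1 to 4 and 180.2, 242 and 245 CPM in LPS replicates 1 to 3. These values overlapped, since control replicate 2 was above LPS replicate 1, and the gene did not pass (log2 fold change 0.49, SE 0.18, adjusted p = 0.0644 in the edgeR quasi-likelihood test with Benjamini-Hochberg adjustment). Without control replicate 2 or without LPS replicate 1 it did pass, with adjusted p values of 0.0189 and 0.0335 in the edgeR quasi-likelihood test with Benjamini-Hochberg adjustment, and over all alternatives it lay between 0.0189 and 0.227. Sult1a1 also passed with no filter on low counts, at 0.0267 in the edgeR quasi-likelihood test with Benjamini-Hochberg adjustment, and in DESeq2 with the same adjustment, at 0.0394. Together with Sult1d1 it carried the higher Sult1 sum described above.

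Sult1b1 (ENSMUSG00000029269), which acts on thyroid hormones, had 45.2, 51.4, 39.5 and 37.2 CPM in control replicates 1 to 4 and 21.7, 34.02 and 33.6 CPM in LPS replicates 1 to 3. All LPS-treated mice were below all control mice, but 2 of them only slightly, and the fall was small (log2 fold change -0.54, SE 0.19, adjusted p = 0.0480 in the edgeR quasi-likelihood test with Benjamini-Hochberg adjustment). Leaving out control replicate 1 or 2 gave adjusted p values of 0.0717 and 0.105 for Sult1b1 in the edgeR quasi-likelihood test with Benjamini-Hochberg adjustment. With LPS replicate 1, 2 or 3 left out, the adjusted p in that edgeR quasi-likelihood test with Benjamini-Hochberg adjustment was 0.181, 0.0682 and 0.0728, so in 5 of 7 such fits the gene did not pass. With LPS replicates 2 and 3 summed it did not pass either (adjusted p = 0.0755 in the edgeR quasi-likelihood test with Benjamini-Hochberg adjustment).

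Sult5a1 (ENSMUSG00000000739) had 7.78, 4.23, 3.97 and 5.13 CPM in control replicates 1 to 4 and 0.553, 0.451 and 0.623 CPM in LPS replicates 1 to 3. All LPS-treated mice were below 1 CPM and all control mice well above it (log2 fold change -3.26, SE 0.40, adjusted p = 7.28e-05 in the edgeR quasi-likelihood test with Benjamini-Hochberg adjustment). Sult1c2 (ENSMUSG00000023122) had 2.41, 5.74, 4.16 and 3.53 CPM in control replicates 1 to 4 and 0.830, 0 and 0.125 CPM in LPS replicates 1 to 3. LPS replicate 2 had no count of this gene, and LPS replicate 1 was the highest of its group yet below every control mouse (log2 fold change -3.49, SE 0.74, adjusted p = 0.00408 in the edgeR quasi-likelihood test with Benjamini-Hochberg adjustment). Without LPS replicate 1 the fitted log2 fold change of Sult1c2 was -5.81, a value that rests on 0 and 2 counts in the other LPS-treated mice.

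Sult1e1, left out of the member list by the rule, had 0.283, 0.631, 0.733 and 0.145 CPM in control and 128, 168 and 158 CPM in LPS-treated mice. These values rest on 4, 10, 12 and 3 counts in control and 2781, 2608 and 2540 counts in LPS-treated mice. Of 10 genes of PAPS supply, 1 fell and 9 did not pass the test, and the median log2 fold change was 0.06. Of all genes tested 13.0% fell, so this count is near the share of all genes. The gene that fell was Papss2, a PAPS synthase of liver, with 111, 127, 109 and 156 CPM in control and 49.04, 59.3 and 62.7 CPM in LPS-treated mice (log2 fold change -1.14, SE 0.17).

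The alpha class sum was at 10.8% of control, and 3 of its 4 tested genes fell. Of these 4, Gsta1 and Gsta2 have few counts in LPS replicates 2 and 3 and passed the filter through the control group, so the filter favoured a fall. Gsta3 (ENSMUSG00000025934), known for conjugating the aflatoxin epoxide in mice, had 1214, 1542, 1706 and 1619 CPM in control replicates 1 to 4 and 173, 171 and 171 CPM in LPS replicates 1 to 3. The 3 LPS-treated mice were almost equal and lay far below every control mouse (log2 fold change -3.15, SE 0.18, adjusted p = 9.51e-08 in the edgeR quasi-likelihood test with Benjamini-Hochberg adjustment). Gsta4 (ENSMUSG00000032348), which acts on 4-hydroxynonenal from lipid peroxidation, had 52.3, 73.8, 75.7 and 60.97 CPM in control replicates 1 to 4 and 2.996, 1.42 and 1.31 CPM in LPS replicates 1 to 3. It had the lowest log2 fold change of the 42 members tested and fell to 2.996% of control, without overlap (log2 fold change -5.06, SE 0.29, adjusted p = 9.73e-08 in the edgeR quasi-likelihood test with Benjamini-Hochberg adjustment). Gsta2 (ENSMUSG00000057933) had 19.5, 26.1, 21.9 and 24.05 CPM in control replicates 1 to 4 and 1.89, 0.258 and 0.187 CPM in LPS replicates 1 to 3. LPS replicate 1 was higher than the other LPS-treated mice but far below the controls (log2 fold change -4.74, SE 0.50, adjusted p = 1.84e-05 in the edgeR quasi-likelihood test with Benjamini-Hochberg adjustment). Without LPS replicate 1 the log2 fold change of Gsta2 was -6.64. Gsta1 had 1.06, 1.77, 1.59 and 0.581 CPM in control and 0.830, 0 and 0 CPM in LPS-treated mice, which overlapped, since LPS replicate 1 alone in its group had counts (log2 fold change -2.02, SE 0.99, adjusted p = 0.160 in the edgeR quasi-likelihood test with Benjamini-Hochberg adjustment). Without LPS replicate 1 Gsta1 passed at an adjusted p of 0.00499 in the edgeR quasi-likelihood test with Benjamini-Hochberg adjustment, with a fitted log2 fold change of -7.36 that depends on the prior count, as the other 2 LPS-treated mice had 0 counts. In edgeR's quasi-likelihood test or DESeq2, each with Benjamini-Hochberg adjustment, the adjusted p of Gsta1 lay between 0.00499 and 0.356 over all alternatives.

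In the mu class, Gstm1 (ENSMUSG00000058135) was the most counted gene and had 1148, 1113, 1259 and 1123 CPM in control replicates 1 to 4 and 125, 88.1 and 97.9 CPM in LPS replicates 1 to 3. Each group was tight, and the LPS-treated mice were at 8.94% of control (log2 fold change -3.48, SE 0.18, adjusted p = 4.49e-08 in the edgeR quasi-likelihood test with Benjamini-Hochberg adjustment). Gstm3 (ENSMUSG00000004038) had 36.2, 32.9, 21.6 and 37.9 CPM in control replicates 1 to 4 and 1.98, 2.51 and 1.62 CPM in LPS replicates 1 to 3. Every LPS-treated mouse was at a small fraction of the lowest control mouse, control replicate 3 (log2 fold change -3.98, SE 0.25, adjusted p = 2.74e-07 in the edgeR quasi-likelihood test with Benjamini-Hochberg adjustment). Gstm6 had 102, 88.2, 82.6 and 76.1 CPM in control replicates 1 to 4 and 13.4, 19.4 and 14.1 CPM in LPS replicates 1 to 3, also without overlap (log2 fold change -2.48, SE 0.18, adjusted p = 7.75e-07 in the edgeR quasi-likelihood test with Benjamini-Hochberg adjustment). Gstm4 had 35.2, 45.8, 45.5 and 53.1 CPM in control replicates 1 to 4 and 14.7, 18.4 and 16.1 CPM in LPS replicates 1 to 3, again with the LPS-treated mice lowest (log2 fold change -1.46, SE 0.17, adjusted p = 4.48e-05 in the edgeR quasi-likelihood test with Benjamini-Hochberg adjustment).

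Of the mu genes that did not pass, Gstm2 had 56.9, 54.7, 25.1 and 37.2 CPM in control replicates 1 to 4 and 32.95, 28.2 and 26.4 CPM in LPS replicates 1 to 3. Its groups overlapped through control replicate 3, which was below all 3 LPS-treated mice (log2 fold change -0.57, SE 0.24, adjusted p = 0.106 in the edgeR quasi-likelihood test with Benjamini-Hochberg adjustment). Without control replicate 3 Gstm2 passed, with a log2 fold change of -0.77 and an adjusted p of 0.00739 in the edgeR quasi-likelihood test with Benjamini-Hochberg adjustment. It also passed with no filter on low counts, at 0.0125 in that edgeR quasi-likelihood test with Benjamini-Hochberg adjustment, and over all alternatives it lay between 0.00739 and 0.281. Gstm5 had 7.97 ± 2.02 CPM (SD, n = 4) in control and 9.62 ± 2.08 CPM (SD, n = 3) in LPS-treated mice, with overlap (log2 fold change 0.27, SE 0.24, adjusted p = 0.450 in the edgeR quasi-likelihood test with Benjamini-Hochberg adjustment). Gstm7 had 36.8 ± 4.41 CPM (SD, n = 4) and 31.8 ± 4.64 CPM (SD, n = 3), also with overlap (log2 fold change -0.22, SE 0.16, adjusted p = 0.348 in the edgeR quasi-likelihood test with Benjamini-Hochberg adjustment).

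The pi class moved less in sum and in both directions. Gstp1 (ENSMUSG00000060803), abundant in the liver of male mice, had 1733, 1314, 1582 and 1686 CPM in control replicates 1 to 4 and 844, 1046 and 1059.6 CPM in LPS replicates 1 to 3. All LPS-treated mice were below all control mice, but the fall was only to 62.3% of control (log2 fold change -0.68, SE 0.17, adjusted p = 0.00977 in the edgeR quasi-likelihood test with Benjamini-Hochberg adjustment). Gstp2 (ENSMUSG00000038155), its neighbour and close paralog, had 1.13, 0.947, 1.83 and 0.919 CPM in control replicates 1 to 4 and 5.67, 4.12 and 3.86 CPM in LPS replicates 1 to 3. This gene rose from a very low level, with no overlap (log2 fold change 1.91, SE 0.37, adjusted p = 0.00225 in the edgeR quasi-likelihood test with Benjamini-Hochberg adjustment). Gstp3 (ENSMUSG00000058216) had 12.7, 12.6, 6.60 and 10.4 CPM in control replicates 1 to 4 and 23.2, 19.1 and 20.05 CPM in LPS replicates 1 to 3. It rose as well without overlap, by just under 2-fold (log2 fold change 0.98, SE 0.22, adjusted p = 0.00515 in the edgeR quasi-likelihood test with Benjamini-Hochberg adjustment). Gstp1 made up 28.3% of the summed Gst counts in control mice and 48.4% in LPS-treated mice.

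Of the theta class, Gstt1 (ENSMUSG00000001663), which handles small halogenated compounds, had 156, 172, 113 and 110.5 CPM in control replicates 1 to 4 and 27.7, 27.8 and 30.01 CPM in LPS replicates 1 to 3. The LPS-treated mice were nearly equal and below all controls (log2 fold change -2.28, SE 0.19, adjusted p = 2.24e-06 in the edgeR quasi-likelihood test with Benjamini-Hochberg adjustment). Gstt3 had 14.6, 18.9, 12.8 and 17.5 CPM in control replicates 1 to 4 and 12.7, 8.89 and 8.59 CPM in LPS replicates 1 to 3, with LPS replicate 1 just below control replicate 3 and a small fall (log2 fold change -0.66, SE 0.21, adjusted p = 0.0329 in the edgeR quasi-likelihood test with Benjamini-Hochberg adjustment). Gstt3 did not pass in 4 fits that left out 1 mouse: the adjusted p in the edgeR quasi-likelihood test with Benjamini-Hochberg adjustment was 0.0901 and 0.0744 without control replicates 2 and 4, and 0.135 and 0.143 without LPS replicates 2 and 3. It also did not pass with the block on replicate number or with LPS replicates 2 and 3 summed, at adjusted p values of 0.0686 and 0.130 in the edgeR quasi-likelihood test with Benjamini-Hochberg adjustment. Gstt2 had 24.7, 31.9, 9.72 and 21.9 CPM in control replicates 1 to 4 and 25.3, 20.3 and 24.4 CPM in LPS replicates 1 to 3. Control replicate 3 was the lowest of all, the other values were mixed, and the gene did not pass (log2 fold change 0.08, SE 0.29, adjusted p = 0.872 in the edgeR quasi-likelihood test with Benjamini-Hochberg adjustment). The sign of this small Gstt2 value turned without control replicate 3 (log2 fold change -0.17) and with library totals in place of TMM (-0.03).

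Gstz1 (ENSMUSG00000021033), the maleylacetoacetate isomerase of tyrosine breakdown, had 538, 679.5, 654 and 628 CPM in control replicates 1 to 4 and 423, 508 and 533 CPM in LPS replicates 1 to 3. All LPS-treated mice were below all control mice, yet the difference did not pass the test (log2 fold change -0.36, SE 0.15, adjusted p = 0.109 in the edgeR quasi-likelihood test with Benjamini-Hochberg adjustment). With library totals Gstz1 passed, at an adjusted p of 0.0461 in the edgeR quasi-likelihood test with Benjamini-Hochberg adjustment, and over all alternatives it lay between 0.0461 and 0.288. Gstk1 (ENSMUSG00000029864), of mitochondria and peroxisomes, had 96.02, 122, 80.96 and 78.5 CPM in control replicates 1 to 4 and 65.6, 66.7 and 75.5 CPM in LPS replicates 1 to 3. Here too the LPS-treated mice were the 3 lowest without the gene passing (log2 fold change -0.45, SE 0.17, adjusted p = 0.0725 in the edgeR quasi-likelihood test with Benjamini-Hochberg adjustment). Without control replicate 3 or 4 Gstk1 passed, with adjusted p values of 0.0393 and 0.0494 in the edgeR quasi-likelihood test with Benjamini-Hochberg adjustment. It also passed with library totals, at 0.0340 in that edgeR quasi-likelihood test with Benjamini-Hochberg adjustment, and over all alternatives it lay between 0.0340 and 0.219. Gsto1, a thiol transferase and dehydroascorbate reductase, had 68.5, 75.8, 79.99 and 76.9 CPM in control replicates 1 to 4 and 23.8, 21.2 and 22.8 CPM in LPS replicates 1 to 3. It fell to 30.02% of control, and no values overlapped (log2 fold change -1.74, SE 0.14, adjusted p = 1.52e-06 in the edgeR quasi-likelihood test with Benjamini-Hochberg adjustment).

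**Figure D2:**
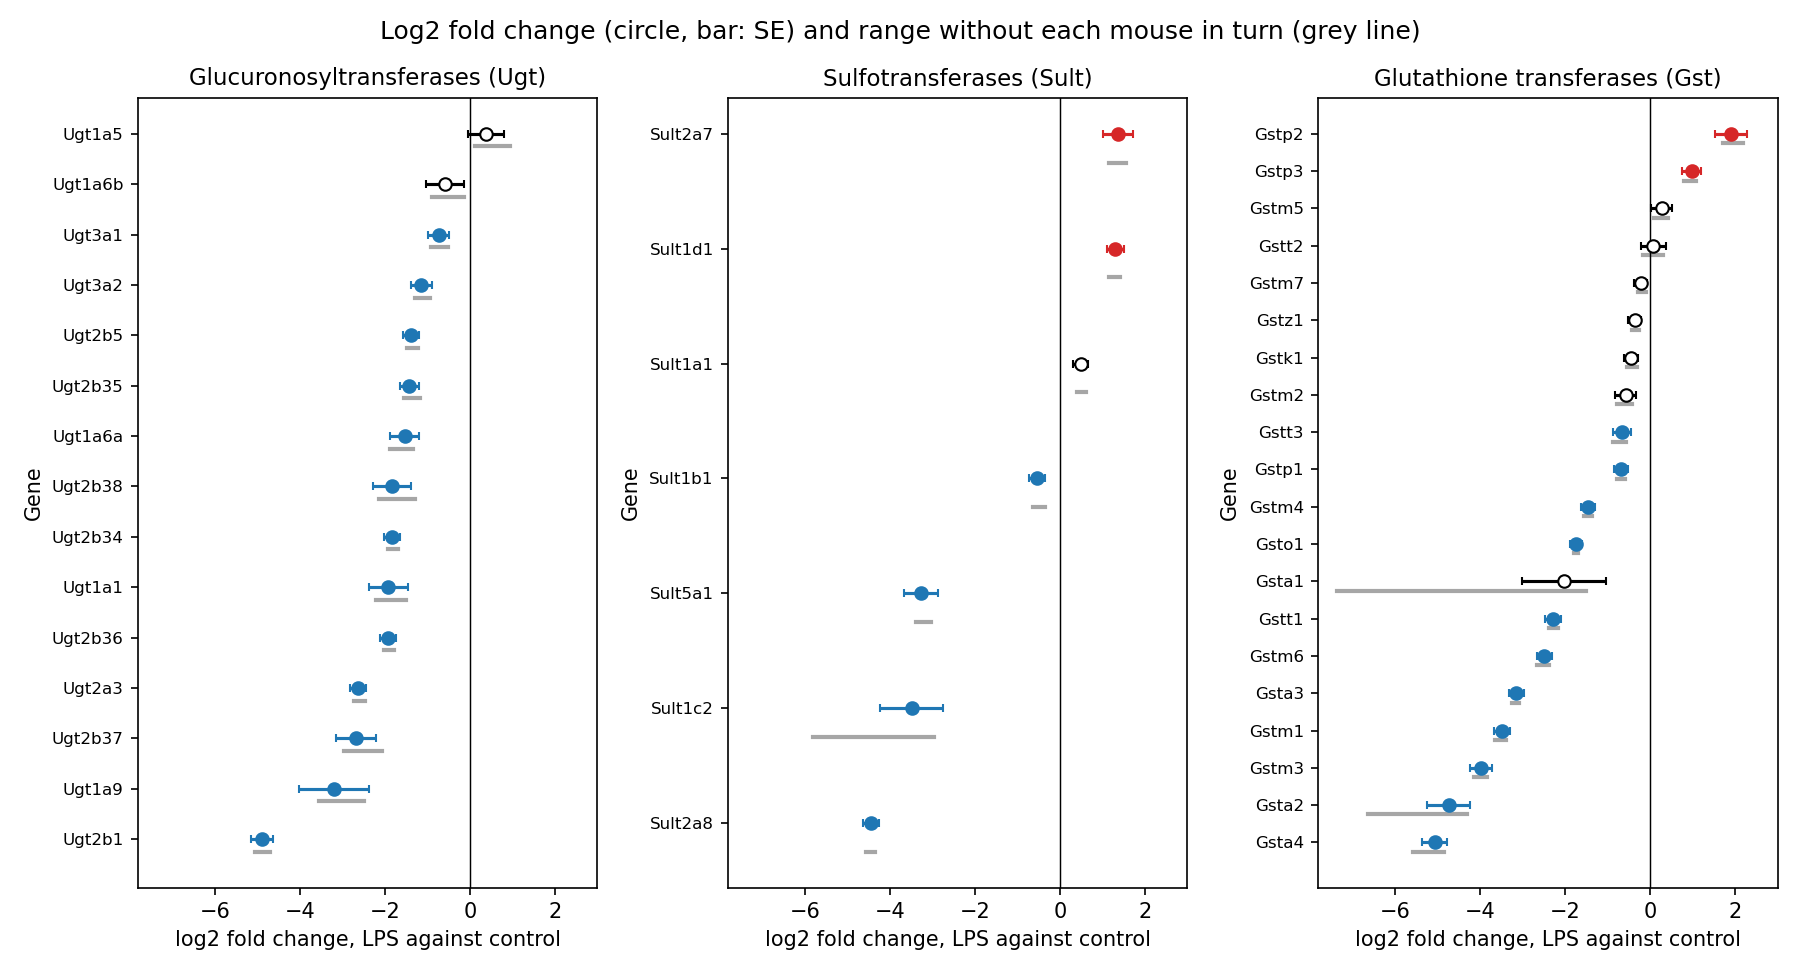
Log2 fold change (LPS over control) of the 42 members that passed the filter, by family, with bars for 1 SE on each side and grey lines for the range over fits that leave out 1 mouse; blue (lower) and red (higher) circles passed the edgeR quasi-likelihood test at an adjusted p below 0.05, and open circles did not. The lowest is Gsta4 at -5.06 and the highest Gstp2 at 1.91.

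Transcripts for glutathione supply moved in both directions. Of 16 tested genes of this list, 5 rose and 2 fell, where 13.3% of all genes tested rose and 13.0% fell, so the share that fell is near that of all genes. The median log2 fold change was 0.21. Ggt5, given below with the mercapturate genes, is also on this list and is counted among the 5 that rose. Mat1a, which makes S-adenosylmethionine ahead of cysteine synthesis, rose (log2 fold change 3.06, SE 0.24) and dominated the list's sum in LPS-treated mice. Gclc, the catalytic subunit of the rate-limiting enzyme of glutathione synthesis, fell, with 383, 336, 637 and 383 CPM in control and 84.9, 96.6 and 84.2 CPM in LPS-treated mice (log2 fold change -2.29, SE 0.22). Ggt6 rose (log2 fold change 1.35, SE 0.19). Of 12 tested genes that turn glutathione conjugates into mercapturates, 3 fell and 1 rose, with a median of -0.19. The sum of that list overlapped between groups, with a mean of 1443 CPM in control and 1438 CPM in LPS-treated mice. The N-acetyltransferase gene Nat8f2, named after its values were seen, took 53.6% of the sum in control and 70.1% in LPS-treated mice. Nat8f2 did not pass the test (log2 fold change 0.38, SE 0.16). The N-acetyltransferases Nat8f1 (log2 fold change -3.10, SE 0.15) and Nat8 (log2 fold change -2.47, SE 0.40) and the aminoacylase Acy3 (log2 fold change -0.80, SE 0.14) fell, and Ggt5 rose (log2 fold change 1.47, SE 0.45). Ggt5 no longer passed without control replicate 2 or 4 or LPS replicate 1, 2 or 3 (adjusted p = 0.0604, 0.0669, 0.147, 0.0538 and 0.0583) in the edgeR quasi-likelihood test with Benjamini-Hochberg adjustment.

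CPM does not rank genes by level, so the order of members within a family was read from CPM per kb of the gene's exon length that no other gene overlaps (GENCODE M21). This length pools the exons of all annotated transcripts of a gene, so it can exceed that of the transcript present. The order within a family depends on it. For example, Gsta3 and Gstp1 had means of 1520 and 1579 CPM in control mice but were divided by 4344 and 1548 bases. On the per-kb scale Ugt2b5 was the highest Ugt gene in both groups, at 618 CPM per kb in control and 238 in LPS-treated mice. Ugt2b36 was 2nd in both, at 413 and 108 CPM per kb, and its per-kb values overlapped those of 3rd-ranked Ugt2b1 in control mice, at 339, 364, 541 and 407 against 366, 283, 517 and 356 in control replicates 1 to 4. Ugt2b1 then dropped from 3rd to 9th place, from 381 to 12.8 CPM per kb. Among the Sult genes Sult2a8 led in control mice at 441 CPM per kb and was 3rd in LPS-treated mice at 20.3. Sult1a1 and Sult1d1 took its place at 147 and 145 CPM per kb in LPS-treated mice, where their single values overlapped (119.6, 160.5 and 162 against 175, 137 and 121). Gstp1 led the Gst genes in both groups, at 1020.0 and 635 CPM per kb. Gstm1 and Gsta3 were 2nd and 3rd in control mice, at 788 and 349.9, and 3rd and 5th in LPS-treated mice, at 70.4 and 39.5. Gstz1 moved from 4th to 2nd, at 123 and 95.9 CPM per kb, although its own level did not pass the test for a rise or fall, and in LPS replicate 1 it was below Gstm1 (83.2, 99.9 and 105 against 84.9, 59.8 and 66.5 in LPS replicates 1 to 3).

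**Figure D3:**
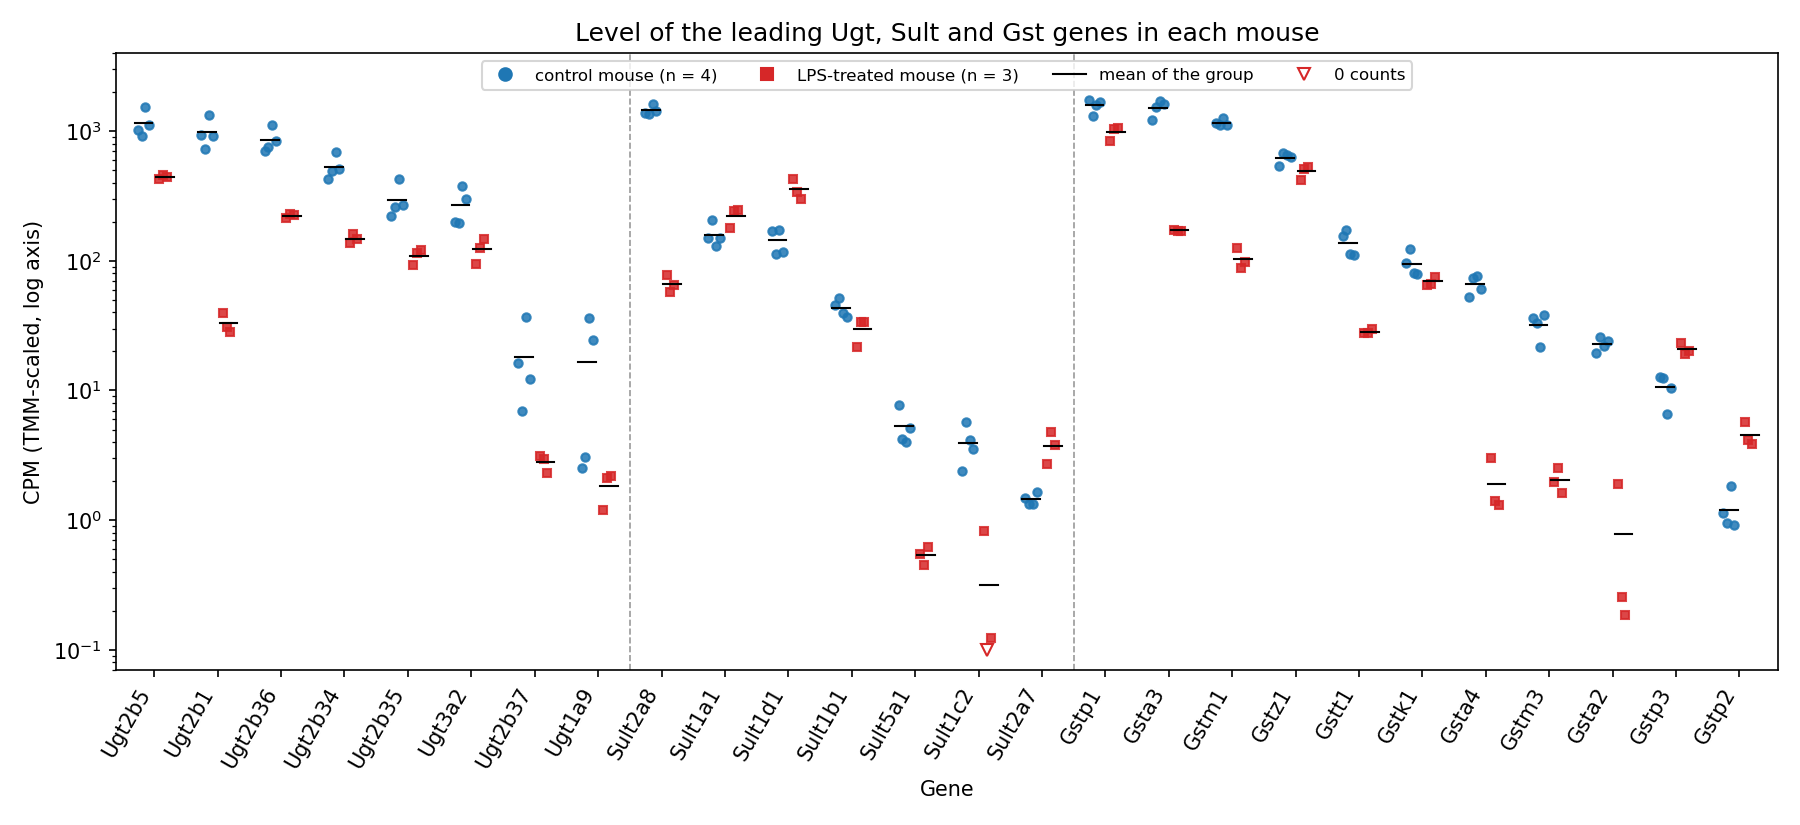
CPM of the members described in full, on a log scale, with circles for 4 control mice, squares for 3 LPS-treated mice, a line for the mean of each group and an open triangle for 0 counts. Sult1d1, Sult2a7, Gstp2 and Gstp3 are the 4 genes of this set that rose.

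How well reads can be assigned to single members varies, since several are near copies of one another. Of the 75-base stretches in the GENCODE M21 transcripts of a gene, the share also found in another gene was 96.0% for Ugt2a1, 93.5% for Ugt2a2, 84.7% for Gsta1, 74.8% for Ugt1a6b, 63.6% for Ugt1a5, 59.4% for Ugt1a9, 57.7% for Ugt1a1 and 51.2% for Ugt1a6a. It was 50.1% for Gstp2, 44.9% with Gstp1 alone, and 29.2% for Gstp1. For Gsta2 it was 36.6%, for Ugt2b5 30.4%, for Ugt2b38 28.0% and for Gstm3 21.6%. For these genes the split of counts between paralogs is uncertain, and the way the authors counted reads that fit several genes is not given in the sources used here. No such stretch was shared by Ugt2b1, Ugt2b35, Ugt2b36, Gsta3, Gsta4, Gstt1, Gstp3, Sult1d1 or Sult2a7. Sult2a8 shared 0.21% and Sult1a1 3.37%.

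The other 20 members, 6 Ugt, 11 Sult and 3 Gst, did not pass the filter and were not tested. Of these, 9 had no count in any of the 7 libraries: Sult1c1, Sult2a3, Sult2a4, Sult2a5, Sult2a6, Sult3a1, Ugt1a8, Ugt2a1 and Ugt2a2. For Sult1c1, Sult2a3, Sult2a6 and Sult3a1, which share at most 1.80% of their 75-base stretches with other genes, 0 counts allow a level of up to the floor given above. Ugt2a1 and Ugt2a2 share 96.0% and 93.5% of theirs, Ugt1a8 58.7%, Sult2a5 25.6% and Sult2a4 11.5%. For these 5, a level above that floor could also give 0 counts, the more so the more is shared. Under 10 counts over all 7 libraries were found for Sult2a2 (8), Sult2a1 (3), Gsta5 (3), Gstt4 (3), Sult3a2 (2) and Ugt1a2 (1). Sult2a1 and Sult3a1 are known mainly from the liver of female mice, and these mice were male. The 5 with the most counts were Ugt1a10 (48), Ugt1a7c (26), Gsto2 (18), Sult4a1 (18) and Sult2b1 (15).

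Promoters were searched for 3 short motifs, since many members moved together. RefSeq promoters of GRCm38.p6, 300 bases around the gene start, were found for 37 of the 42 tested members (46 promoters, as some genes have several). The motifs were TGACNNNGC, the core of the antioxidant response element bound by Nrf2, GCGTG, the core of the site of the Ah receptor, and TTGCNNAA, a core bound by C/EBP factors, each on both strands. TTGCNNAA was in 21.7% of the tested members' promoters and in 10.8% of all 32851 promoters of this length. TGACNNNGC was in 6.52% of the members' and 12.4% of all promoters, and GCGTG in 21.7% and 32.4%. By family, TTGCNNAA was in 4 of 13 Ugt promoters (Ugt2a3, Ugt2b1, Ugt2b36 and Ugt2b5), 2 of 8 Sult promoters (Sult1c2 and Sult2a8) and 4 of 25 Gst promoters (Gsta3, Gstm2, Gstp3 and Gstt1). GCGTG was in 1 Ugt promoter (Ugt1a5), 2 Sult promoters and 7 Gst promoters. TGACNNNGC was in 3 Gst promoters (Gsta3, Gstm5 and Gstm7) and in no Ugt or Sult promoter. Matches of different motifs overlapped in 1 of the 46 promoters, that of Gstm5. These shares were not tested, and a match describes letters in this window only.

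Of the members given in full, Gsta3 alone has a match of TGACNNNGC, and its promoter is printed to show where these letters lie in a gene that fell. The sequence is that of RefSeq on GRCm38.p6 at chr1:21240335-21240634, plus strand, 5' to 3', and capitals mark matches of any of the 3 motifs.
Gsta3: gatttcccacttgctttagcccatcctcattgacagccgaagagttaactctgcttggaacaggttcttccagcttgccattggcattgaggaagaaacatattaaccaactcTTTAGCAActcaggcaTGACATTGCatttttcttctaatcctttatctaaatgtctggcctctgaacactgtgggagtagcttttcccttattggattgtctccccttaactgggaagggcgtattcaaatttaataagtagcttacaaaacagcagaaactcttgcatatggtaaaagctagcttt
It holds TTGCNNAA at -137 and TGACNNNGC at -121, counted from the gene start to the first printed base of each match.

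Conjugates leave the hepatocyte through transporters, and of 18 tested conjugate transporters 12 fell and 1 rose, with a median log2 fold change of -0.99. Of all genes tested, 13.0% fell and 13.3% rose. Their sum was 3337, 3826, 4479 and 4059 CPM in control and 1714, 1827 and 1793 CPM in LPS-treated mice, without overlap. The uptake carriers Slco1a1 (log2 fold change -4.29, SE 0.20) and Slc22a7 (log2 fold change -4.27, SE 0.27) and the bile salt export pump Abcb11 (log2 fold change -1.95, SE 0.16) fell, and Abcc1 rose (log2 fold change 1.60, SE 0.44). Abcc1 no longer passed without LPS replicate 1 or 3 (adjusted p = 0.0863 and 0.0688) in the edgeR quasi-likelihood test with Benjamini-Hochberg adjustment. Of 7 genes that undo conjugation, 3 rose and 4 did not pass the test. Those that rose were the beta-glucuronidase Gusb (log2 fold change 0.61, SE 0.19), the arylsulfatase Arsg (log2 fold change 0.79, SE 0.22) and the sulfatase-activating Sumf1 (log2 fold change 0.52, SE 0.16). Gusb no longer passed without control replicate 2 or LPS replicate 1, 2 or 3 (adjusted p = 0.0842, 0.0704, 0.0637 and 0.125), Arsg no longer passed without LPS replicate 2 or 3 (adjusted p = 0.0899 and 0.0741), and Sumf1 no longer passed without control replicate 1 or 2 or LPS replicate 1, 2 or 3 (adjusted p = 0.0636, 0.0898, 0.0871, 0.0757 and 0.101), all in the edgeR quasi-likelihood test with Benjamini-Hochberg adjustment.

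Genes outside the rule, not all of them conjugating enzymes, were taken from 2 further lists. For comparison, 13.0% of all genes tested fell and 13.3% rose. Of 9 tested genes of a list of microsomal and other glutathione transferases and related proteins, 3 fell and 2 rose (median -0.53). Among those that fell is Clic5, named after its values were seen. It had 59, 25, 36 and 31 counts in control and 6, 8 and 7 in LPS-treated mice. Clic5 thus passed the filter through the control group, so the filter favoured a fall. Microsomal Mgst3 (log2 fold change -2.67, SE 0.35) and Faah, known as a fatty acid amide hydrolase (log2 fold change -1.67, SE 0.13), fell, and the prostaglandin E synthase Ptges (log2 fold change 2.96, SE 0.71) and the chloride channel protein Clic1 (log2 fold change 0.92, SE 0.19) rose. Ptges had only 5, 1, 3 and 1 counts in control and 24, 19 and 23 in LPS-treated mice, so it passed the filter through the LPS group and its fold is imprecise (log2 fold change 3.61 without control replicate 1). The gene of this list with the most counts, Mgst1, chosen after its values were seen, did not pass, at 6518, 5714, 4361 and 4103 CPM in control and 3414, 3677 and 3654 CPM in LPS-treated mice. Of 15 other conjugating enzymes, 7 fell and 2 rose (median -0.53). The methyltransferases Nnmt (log2 fold change 5.17, SE 0.35) and As3mt (log2 fold change 2.70, SE 0.19) rose, and Gamt (log2 fold change -4.65, SE 0.32) fell.

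A list of regulators of these enzymes and their partners did not move in 1 direction. Of 26 genes tested, 6 rose and 5 fell, with a median log2 fold change of 0.05. Among all genes tested, 13.3% rose and 13.0% fell. The xenobiotic receptor gene Nr1i3 (CAR) fell (log2 fold change -0.85, SE 0.14), while Nr1i2 (PXR) at 0.32 and Ahr at 0.30 did not pass. Nfe2l2, which encodes Nrf2, fell slightly (log2 fold change -0.41, SE 0.14). Nfe2l2 no longer passed without control replicate 1, 2 or 4 or LPS replicate 1, 2 or 3 (adjusted p = 0.0689, 0.0561, 0.0824, 0.127, 0.126 and 0.116) in the edgeR quasi-likelihood test with Benjamini-Hochberg adjustment. Hnf4a rose (log2 fold change 0.74, SE 0.18). Hnf4a no longer passed without LPS replicate 2 or 3 (adjusted p = 0.0581 and 0.0506) in the edgeR quasi-likelihood test with Benjamini-Hochberg adjustment. Of the 3 C/EBP genes in the list, all given after their values were seen, Cebpa had the most counts, with 271, 266, 246 and 224 CPM in control replicates 1 to 4 and 163, 181 and 179 CPM in LPS replicates 1 to 3, and fell without overlap (log2 fold change -0.53, SE 0.14). Cebpb (log2 fold change 0.92, SE 0.19) and Cebpd (log2 fold change 2.34, SE 0.36) rose, and Stat5b fell (log2 fold change -1.07, SE 0.13). Por, which the list holds and which is counted among the 6 that rose, encodes the cytochrome P450 oxidoreductase, an electron-transfer enzyme and not a regulator (log2 fold change 1.99, SE 0.24). Foxa1 had 15.99, 13.3, 48.2 and 13.8 CPM in control replicates 1 to 4 and 9.17, 10.2 and 10.3 CPM in LPS replicates 1 to 3. It fell (log2 fold change -1.20, SE 0.40), but control replicate 3 was far above the rest, and without it the log2 fold change was -0.54. Foxa1 no longer passed without LPS replicate 1, 2 or 3 (adjusted p = 0.112, 0.111 and 0.112) in the edgeR quasi-likelihood test with Benjamini-Hochberg adjustment, and it did not pass in DESeq2 with the same adjustment (adjusted p = 0.106). Of 19 tested Nrf2 targets outside the Gst family, 10 fell and 3 rose, among them Ces1g (log2 fold change -3.50, SE 0.20) and Aox1 (log2 fold change -2.40, SE 0.16), which fell, and Hmox1 (log2 fold change 3.45, SE 0.24), which rose.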

How the data were processed

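The authors deposited raw read counts for 56691 genes in 7 samples, without normalization. The submitters' processing notes name cutadapt 1.9.1, HISAT2 2.2.1, HTSeq 0.6.1, DESeq2 1.34.0 and the build GRCm39. The annotation release, the counting mode and the strand setting are not given in the sources used here.

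Counts were analysed in R 4.3.3 with edgeR 4.0.16: filterByExpr by group, TMM factors, and the quasi-likelihood test with no term but treatment, adjusted by Benjamini-Hochberg across 13683 genes. The SE was derived from the F statistic. The replicate numbers 1 to 3 that the groups share belong to different animals, and a block on them was only an alternative. Other alternatives were DESeq2 1.42.0, RLE factors, library totals, mitochondrial genes or genes over 1% of a sample's counts left out of the library size, no filter, a minimum of 10 counts per sample, an adjusted p below 0.01, a change of over 2-fold, each mouse left out in turn, and LPS replicates 2 and 3 summed. The methods were tested on simulated data. That simulation covered the edgeR fit only and planted changes only in well counted genes. It did not model the closeness of LPS replicates 2 and 3, and it does not cover weakly counted members.

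Members given in full are, in each family, the 6 tested with the highest mean CPM and, at a mean of at least 1 CPM, up to 3 with the largest rise and 3 with the largest fall among those called. Other tested members are given with their values or group means, and untested ones by their counts. From every pathway list, the text names the 3 genes of smallest p among those called, and the lowest and highest called fold changes, with 5 regulators named whatever their result (another regulator, 1 marker gene and what depends on them are not reported here), and from every marker list the gene with the most counts. Members and lists were chosen with earlier results of these data known. Exon lengths and shared 75-base stretches come from GENCODE M21 and promoters from RefSeq on GRCm38.p6, both older than the build of the counts.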

Additional observations from a re-analysis of the deposited data

Results flagged for a closer look

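Among the 4 control mice, 11 of 163 values checked had 1 mouse far from the other 3, where chance gives about 1 in 20. The values were the CPM of tested members and of list genes that the naming rule picked, with a few other genes, the summed CPM of families and lists, and the mitochondrial and member shares of counts; other list genes were not checked. The summed Sult level was 1984 CPM in control replicate 3 and 1734 to 1765 CPM in the others. In the same mouse the UDP-glucuronate supply genes summed to 1182 CPM (831 to 880.1 in the others) and the other conjugating enzymes to 2497 CPM (2262 to 2285). Control replicate 3 also stood apart for Gclc at 637 CPM (336 to 383), Foxa1 at 48.2 CPM (13.3 to 16.0) and Reln, a stellate cell marker, at 29.1 CPM (39.2 to 41.3). In control replicate 4, Hpx had 2595 CPM (3342 to 3468), Lyve1 7.74 CPM (4.80 to 5.02), and Retnlg 0.0484 CPM against 0 in the others, which is 1 count and under the detection floor. Pgm2 had 6.37 CPM in control replicate 1 (3.91 to 4.09), and Abcc1 had 1.96 CPM in control replicate 2 (0.794 to 0.968). No single Ugt, Sult or Gst gene that was tested had such a value. Groups of 3 mice were not checked.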

How the results depend on the processing

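Over the 42 tested members and the alternatives, 706 values kept their direction and their side of the threshold, 32 no longer passed, 12 newly passed and 2 changed sign. Both sign changes were in Gstt2, at -0.0261 with library totals and from -0.17 to 0.30 over the fits without 1 mouse, below 0 only without control replicate 3; this gene did not pass the test in the fit to all 7 mice. At an adjusted p below 0.01, 1091 genes rose and 993 fell, and with a change of over 2-fold 1068 rose and 1000 fell; both rules are stricter by construction. Leaving out 1 mouse gave 1146 to 1868 genes that fell and 1 to 3 Sult genes that rose, lowest in both without LPS replicate 2; the cause was not tested. Only 1 Sult gene rose at an adjusted p below 0.01, and 1 Gst gene rose by over 2-fold. With at least 10 counts required in every sample, 38 members were tested and 2 Sult and 10 Gst genes fell, since Sult5a1, Sult1c2 and Gsta2 have fewer counts. Ugt genes that fell numbered 11 at an adjusted p below 0.01, 12 with RLE factors, with library sizes that omit genes above 1% of counts or with LPS replicates 2 and 3 summed (Ugt3a1 lost in each), 13 with DESeq2, library totals or the strict filter, and 14 with no filter, where Ugt1a6b also passed. Sult genes that rose numbered 3 with DESeq2 and with no filter, Sult1a1 being the 3rd. With no filter 12 Gst genes fell, Gstm2 among them. Leaving mitochondrial genes out of the library size changed no member's call. With the replicate block, 1647 genes rose and 1587 fell, 13 Ugt, 4 Sult and 10 Gst genes fell, 2 Sult and 2 Gst genes rose, and Gstt3 was the only member whose call changed (adjusted p = 0.0686 in edgeR). Deviations of mice that share a number correlated across genes by 0.20, -0.06 and 0.08, and LPS replicate 1 alone was closest to the control of its own number. The SD of log2 ratios between LPS replicates 2 and 3 was 0.10, and 0.29 to 0.58 for other pairs within a group. With LPS replicates 2 and 3 summed, 12 Ugt, 3 Sult and 10 Gst genes fell (Sult1b1 and Gstt3 lost), and 2 Sult and 2 Gst genes rose. Depth limits the weakly counted members: Gsta1, Gsta2 and Sult1c2 had from 0 to 4 counts in LPS replicates 2 and 3.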

Other observations

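Conjugating genes outside the naming rule also carried counts. Gstp-ps, a pseudogene of the pi class, had 199, 127, 111 and 114 CPM in control replicates 1 to 4 and 62.2, 75.4 and 83.9 CPM in LPS replicates 1 to 3. All LPS-treated mice were below all control mice (log2 fold change -0.90, SE 0.21, adjusted p = 0.00738 in the edgeR quasi-likelihood test with Benjamini-Hochberg adjustment). Gstm2-ps1 had 8.77, 11.6, 8.55 and 7.79 CPM in control replicates 1 to 4 and 1.337, 0.773 and 0.560 CPM in LPS replicates 1 to 3. It fell as well without overlap (log2 fold change -3.32, SE 0.34, adjusted p = 1.38e-05 in the edgeR quasi-likelihood test with Benjamini-Hochberg adjustment). Both were chosen after their values were seen. Of the 75-base stretches of Gstm1, 7.51% are also found in Gstm2-ps1. The share of the pseudogenes' own stretches found in other genes was not computed. As the counting mode is not given, how many counts of both pseudogenes come from reads of other genes is not known.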
